A study of Mus musculus with 6 samples.

Results

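The cytosolic ribosome of mouse hind leg muscle was followed here through the transcripts of its protein subunits. Members were taken by gene symbol: the Rpl and Rps genes that carry a number, with or without a closing a, x, l or l1, together with Rplp0, Rplp1, Rplp2, Rpsa and Fau. In all, 83 of the 16759 genes of the table met this rule, 51 of the large subunit and 32 of the small subunit. The rule reads symbols only, though it was set with earlier results of these data known. The mice were male C57BL/6J animals aged 8 weeks at the start. The Con group (3 mice) was not trained, and the EX group (3 mice) ran on a treadmill at moderate intensity in daily sessions of 60 min, 5 per week, over 6 weeks (22 km in all). Muscle of the EX mice was taken 24 h after the last session, following perfusion with saline and with the fat between muscles removed. Each library came from 1 mouse, and the labels do not name which muscles of the hind leg were sampled.

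A ribosome consists of a small subunit, which binds and reads the mRNA, and a large subunit, which joins the amino acids. Most of its proteins are encoded by single-copy genes whose mRNAs begin with a run of pyrimidines, the 5′ terminal oligopyrimidine (TOP) tract, through which mTORC1 and LARP1 set their translation. A few proteins have a second gene, and of these Rpl3l, the paralogue of Rpl3, is known for its restriction to striated muscle.

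Total estimated counts lay between 13845362 and 16240431 per library, and the 10883 genes that averaged 1 FPKM or more were tested. Transcripts that define skeletal muscle fibres were abundant in all 6 libraries, as for Acta1, Ckm and Myh4. Marker counts are to be read against the 9.11% of all genes tested that rose in EX and the 8.8% that fell. The tissue itself differed between the groups: all 7 slow fibre markers were higher in EX, with a summed TPM of 137 to 151 in Con and 426 to 462 in EX. Single slow fibre markers changed by very different amounts, with log2 fold changes from 0.40 (Myl3) to 6.65 (Myh7) and a median of 4.26. The 8 macrophage markers had a summed TPM of 62.5 to 65.7 in Con and 109 to 118 in EX, and 6 of the 7 that were tested were higher. Regenerating fibre markers were higher for 3 of 5 tested, endothelial markers lower for 3 of 6, fibroblast markers higher for 3 of 6, adipocyte markers higher for 3 of 4, red cell markers higher for 1 of 4, and fibre markers were higher for 3 and lower for 3 of 10. No lymphocyte marker passed the filter, with a summed TPM of 1.10 to 2.08 in Con and 0.83 to 1.06 in EX. Their part in the values below was not tested, and in bulk tissue fewer cells of a type and less RNA per cell cannot be told apart.

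To show what these transcripts share in sequence, the RefSeq promoter table of build GRCm38.p6 was read for the 63 members it lists. A TOP-like start, counted as a C at the annotated start followed by at least 4 bases that are C or T, was present in 15 of the 63 members (23.8%) and in 3.04% of the 8762 tested genes with an entry. It was found in 8 of 39 large subunit genes (20.5%) and 7 of 24 small subunit genes (29.2%). The following windows run from 10 bases before the annotated start to 20 bases from it, 5′ to 3′ on the gene's strand, with the tract in capitals. They show 5 members with long tracts and then the paralogues Rpl3l, Rpl22l1 and Rpl22, which have none at their first listed start.
Fau (chr19:6057937-6057966, plus strand): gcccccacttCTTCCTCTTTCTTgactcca
Rpl15 (chr14:18270967-18270996, minus strand): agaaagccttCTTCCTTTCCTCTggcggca
Rpl35 (chr2:39005112-39005141, minus strand): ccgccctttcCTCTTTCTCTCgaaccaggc
Rps10 (chr17:27635225-27635254, minus strand): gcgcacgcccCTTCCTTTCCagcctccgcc
Rps18 (chr17:33955646-33955675, minus strand): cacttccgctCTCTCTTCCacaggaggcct
Rpl3l (chr17:24727816-24727845, plus strand): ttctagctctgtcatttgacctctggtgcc
Rpl22l1 (chr3:28805498-28805527, plus strand): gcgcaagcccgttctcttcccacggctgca
Rpl22 (chr4:152324426-152324455, plus strand): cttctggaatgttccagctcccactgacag
An annotated start can lie some bases from the one used in muscle, so absence of the tract says only that these letters are not at the annotated position. The letters CCGGAAGT, the core bound by ETS factors, occurred on either strand within the 300 bases around the start in 12 of the 63 members (19%) and in 9.62% of the tested genes with an entry.

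The coding sequences of the paralogues are shown because reads had to be assigned to one or the other, and no identical run approached the read length of 150 bases. Over the aligned coding bases of GENCODE M21, Rpl3 and Rpl3l were 74.3% identical and Rpl22 and Rpl22l1 70.2% identical, and the longest identical runs were 22 and 26 bases. Bases that differ within each pair are in capitals in the following 60-base coding windows, which cover bases 1 to 60 of Rpl3 and Rpl3l, bases 175 to 234 of Rpl22 and bases 157 to 216 of Rpl22l1.
Rpl3: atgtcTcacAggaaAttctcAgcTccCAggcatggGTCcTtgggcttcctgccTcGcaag
Rpl3l: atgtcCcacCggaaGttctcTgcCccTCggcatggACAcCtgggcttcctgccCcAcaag
Rpl22: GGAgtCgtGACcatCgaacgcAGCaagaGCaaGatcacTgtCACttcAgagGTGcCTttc
Rpl22l1: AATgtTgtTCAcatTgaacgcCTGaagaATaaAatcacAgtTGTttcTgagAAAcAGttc
Copies of ribosomal protein genes without introns are common in the mouse genome, and reads shared with such copies can be split between them. Counts were not whole numbers in at least 1 library for 9 members, among them Rpl23, Rpl27, Rpl34, Rpl37, Rplp2, Rps16, Rps27 and Rps6, and their values are less certain.

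Levels of the members, given as TPM so that genes of unequal length can be set side by side, spanned a wide range. The median over the 83 members was 630 TPM, with 19 members above 1000 TPM and 8 below 100 TPM. Rps27, a zinc finger protein of the small subunit, had the highest mean at 2931 TPM, but its implied length of 51.7 bases is below its coding length of 255 bases and raises its TPM for a given count. Other abundant transcripts of the small subunit were Rps15 at 1831, Rps14 at 1640.3 and Rps21 at 1512 TPM. In the large subunit the highest were Rpl35 at 1824, Rpl23a at 1769, the stalk protein gene Rplp1 at 1546, Rpl26 at 1526 and Rpl41 at 1318 TPM. Neighbours in this order often did not differ beyond the spread between libraries: Rps15 ranged from 1777 to 1916 TPM, Rpl35 from 1705 to 1959 TPM and Rpl23a from 1677 to 1846 TPM. Short implied lengths raise TPM in other members too. They were 84.3 bases for Rps21, 133 for Rpl41, 136 for Rpl35 and 150 for Rplp1, beside a median of 390 over the members.

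**Figure D1:**
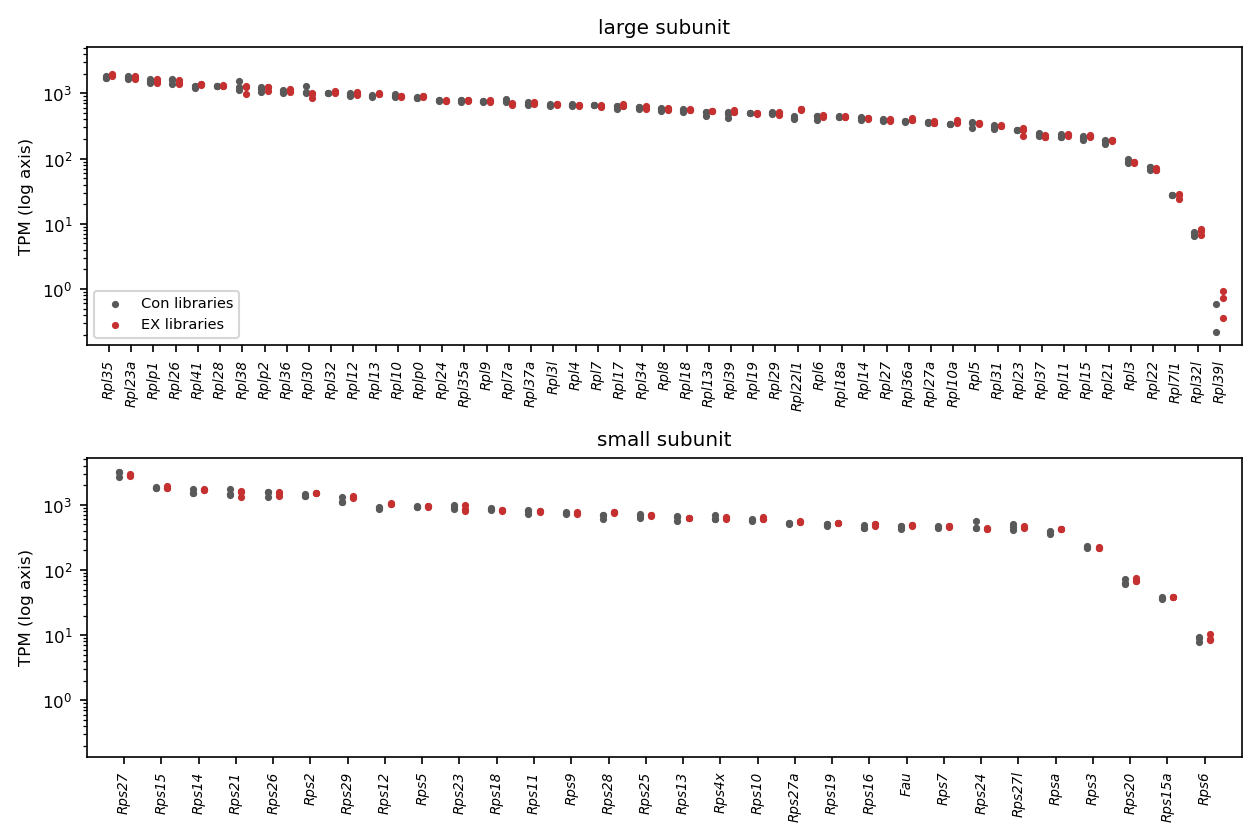
TPM of 81 members in each library on a log axis, sorted by mean within each subunit, with Con libraries in grey and EX libraries in red. Most members lie between 100 and 3200 TPM, and the lowest are Rpl39l, Rpl32l, Rps6, Rpl7l1 and Rps15a. A value of 0 (Rpl39l in Con replicate 3) is not drawn.

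The lowest members are given with what bears on their level. Rpl39l, the paralogue of Rpl39, had estimated counts of 1, 3 and 0 in Con and 5, 4 and 2 in EX and was the only member under the filter. Rpl32l averaged 7.36 TPM and Rpl7l1 27.1 TPM. Rps6, whose protein is the substrate of the S6 kinases, was listed at only 9.04 TPM, from estimated counts of 89.3 to 128.6 that were not whole in any library. Rps15a at 38.2 TPM and Rps20 at 67.8 TPM had implied lengths of 4812 and 3122 bases, far above the median of 390 bases over the members, which lowers their TPM for a given count.

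Many ribosomal protein transcripts (48.8% of those tested) rose in EX by a small amount. Of the 82 members tested, 40 rose, none fell and 42 did not pass the test (edgeR's quasi-likelihood test, Benjamini-Hochberg adjusted p under 0.05), whereas 9.11% of all genes tested rose and 8.8% fell. The median log2 fold change of the members was 0.13 (an increase of 9.33%), with quartiles of 0.09 and 0.19, beside a median of −0.00093 over all genes tested. The fold change was above 0 in 78 of the 82 members (95.1%) and in 49.7% of all genes. At an unadjusted p under 0.05 the test gave 61 members, 1 of them lower in EX, against 30.6% of all genes tested and 15.1% lower. DESeq2 called 33 members higher and 0 lower, against 5.91% and 5.38% of all genes. With library totals 24 members were called (22 higher, 2 lower), with an offset for transcript length 18 (16 higher, 2 lower) and on TPM 4 (all higher). The median of all genes tested also moved, to −0.057 with library totals and −0.091 on TPM. Relative to that of all genes, the members' median was 0.13 in the main fit and with library totals. It was 0.12 on TPM and 0.049 with the offset. All 3 EX libraries lay above all 3 Con libraries in CPM, the counts scaled to library size, for 41 members and below them for 0, against 16.7% and 16.9% of all genes tested (33.7% in either direction). These 41 comprised 35 of the called members and 6 that were not called. With 3 mice in each group an exact permutation test of a single value cannot go below p = 0.1.

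Both subunits moved the same way. In the large subunit 22 of 50 genes tested rose, with a median log2 fold change of 0.12, and in the small subunit 18 of 32 rose, with a median of 0.14, beside 9.11% of all genes tested. With the offset for length 8 rose and 2 fell in the large subunit and 8 rose in the small subunit. The ranges overlapped widely, from −0.15 to 0.51 in the large subunit and from −0.00084 to 0.31 in the small subunit, and the difference between the subunits was not tested. The members together took 1.44, 1.48 and 1.45% of the counts in Con and 1.51, 1.55 and 1.55% in EX, so that the groups did not overlap. As a share of TPM the values were 5.95, 6.15 and 6.12% in Con and 6.15, 6.24 and 6.17% in EX, where EX replicate 1 lay within the Con range. The ratio of large to small subunit TPM was 1.25, 1.25 and 1.26 in Con and 1.22, 1.24 and 1.23 in EX, where the lowest Con and highest EX libraries nearly met. The ratio of summed counts overlapped between the groups, with 1.581, 1.621 and 1.656 in Con and 1.575, 1.598 and 1.564 in EX.

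**Figure D2:**
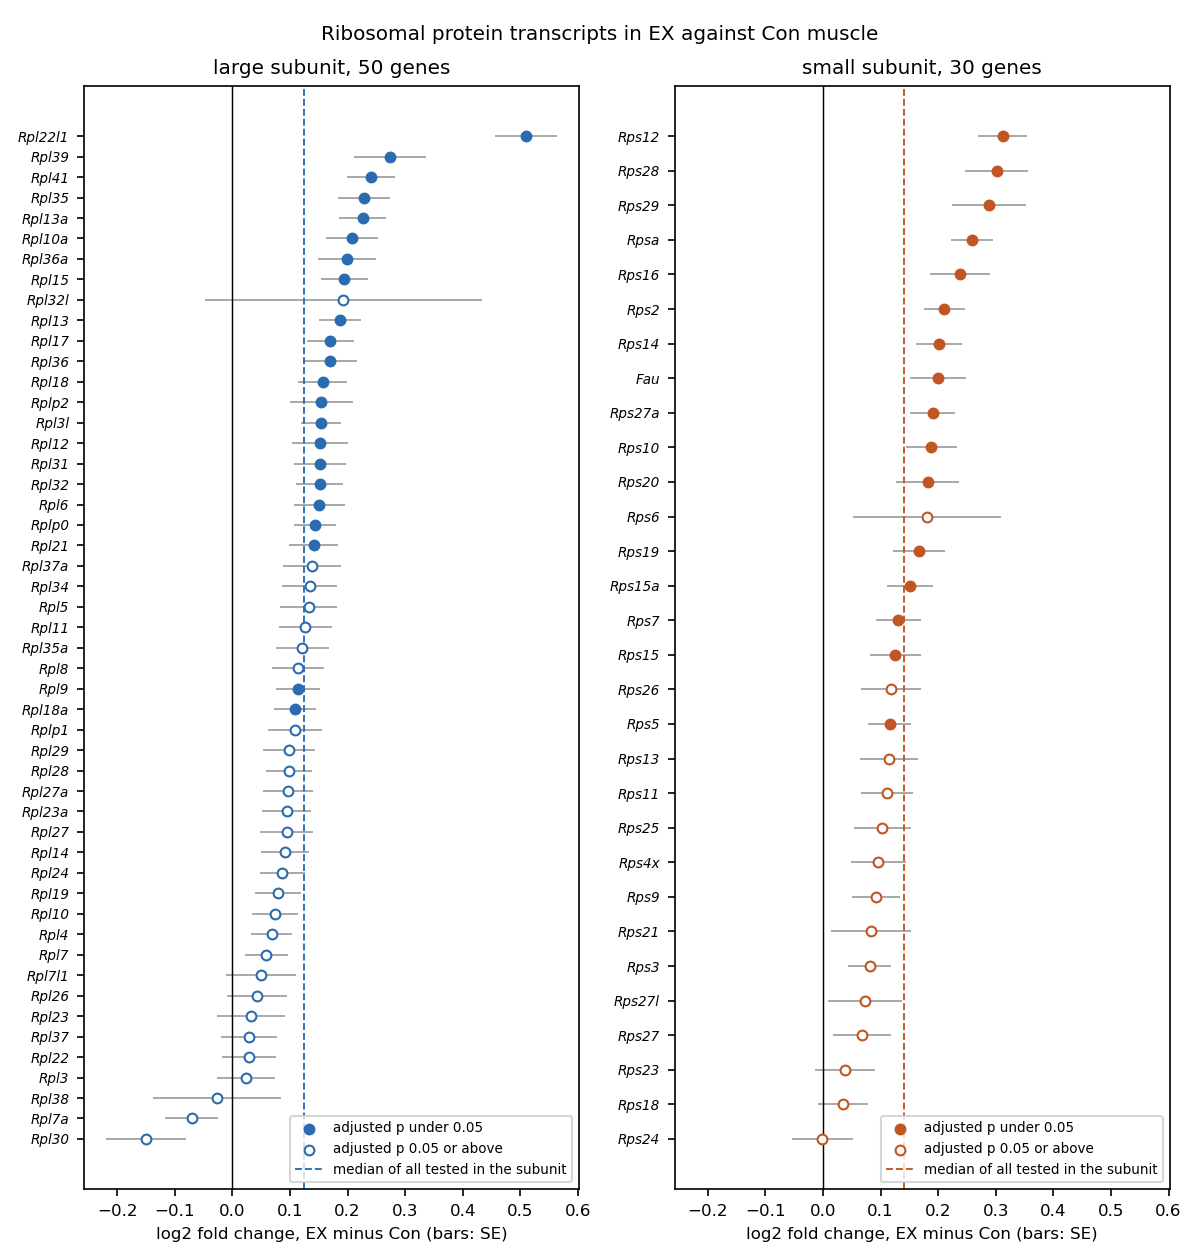
Log2 fold change of EX against Con (points, with bars of 1 SE) for 50 large and 30 small subunit genes tested. Filled points passed the adjusted p threshold of 0.05, and dashed lines give the medians of all tested genes of each subunit, 0.12 and 0.14. Rpl22l1 stands furthest to the right, and no filled point lies below 0.

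Among large subunit genes, Rpl22l1, the paralogue of the RNA-binding protein gene Rpl22, changed most. It measured 48.7, 51.8 and 44.2 CPM in Con and 67.2, 68.2 and 70.5 CPM in EX. The groups were well separated, and the log2 fold change was 0.51 (SE 0.05, edgeR adjusted p = 5.57e-08), an increase of 42.4%. Rpl39, a small protein that lines the exit tunnel of the nascent chain, had 34.4, 43.1 and 37.4 CPM in Con and 46.5, 45.8 and 47.1 CPM in EX. Its EX values were tightly grouped above all Con values (log2 fold change 0.27, SE 0.06, edgeR adjusted p = 0.00234). With an offset for transcript length its log2 fold change was 0.16 (edgeR adjusted p = 0.0889), and 5 of 19 alternatives did not call it. Rpl41, which encodes the smallest ribosomal protein, measured 110.1, 116 and 111 CPM in Con and 132, 135 and 132 CPM in EX (log2 fold change 0.24, edgeR adjusted p = 1.03e-04). Rpl35, a protein near the tunnel exit, had 161, 169.5 and 149 CPM in Con and 181, 194 and 186 CPM in EX (log2 fold change 0.23, edgeR adjusted p = 4.56e-04). Rpl35 lost its call in 2 of 19 alternatives (0.12 with the offset for length, edgeR adjusted p = 0.0564) and Rpl41 in 1 (0.13 with limma on TPM, adjusted p = 0.0629), while Rpl22l1 kept it in all 19. For these 4 genes no EX library reached down to a Con library.

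The stalk proteins of the large subunit, which recruit the elongation factors, rose in 2 of 3 genes. Rplp0, the base of the stalk, had 625, 599 and 589.7 CPM in Con and 640.0, 692 and 671 CPM in EX, without overlap (log2 fold change 0.14, SE 0.04, edgeR adjusted p = 0.00582). In 5 of 19 alternatives Rplp0 was not called, among them library totals (0.09, edgeR adjusted p = 0.0729), limma on TPM (0.05, adjusted p = 0.336) and the fit without EX replicate 2 (0.12, edgeR adjusted p = 0.0553). Rplp2 measured 103, 110.2 and 111 CPM in Con and 106, 126 and 129 CPM in EX, and the groups overlapped through EX replicate 1. Its log2 fold change of 0.15 was just past the threshold (edgeR adjusted p = 0.0495), and the call was lost in 14 of 19 alternatives, among them DESeq2 (adjusted p = 0.118). Without EX replicate 1 the log2 fold change was 0.24 (edgeR adjusted p = 0.00146). Rplp1 overlapped between the groups, with 149.9, 167 and 151 CPM in Con and 174, 157 and 174 CPM in EX (log2 fold change 0.11, edgeR adjusted p = 0.116). Rpl5 and Rpl11, which join the ribosome with the 5S RNA and can bind Mdm2, were singled out for that role after their values were seen. Rpl5 had a log2 fold change of 0.13 (edgeR adjusted p = 0.063) and Rpl11 one of 0.13 (edgeR adjusted p = 0.0557), so neither passed.

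The abundant large subunit genes Rpl23a and Rpl26, both at the tunnel exit, did not pass the test. Rpl23a measured 275, 299 and 279 CPM in Con and 284, 318 and 309 CPM in EX (log2 fold change 0.09, edgeR adjusted p = 0.13). Rpl26 measured 215, 251 and 229.9 CPM in Con and 220.4, 261 and 236 CPM in EX (log2 fold change 0.04, edgeR adjusted p = 0.632). In both genes the groups overlapped. Rpl32l, with 17 to 25 counts a library, had a log2 fold change of 0.19 but an SE of 0.24 (edgeR adjusted p = 0.65), so that a change of the family's size was not detectable at this depth.

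Only 4 members had a fold change below 0, and they are named here after their values were seen: Rpl30, Rpl7a, Rpl38 and Rps24. Rpl30, a large subunit protein that also represses the splicing of its own transcript in yeast, measured 182, 145 and 133 CPM in Con and 144, 143 and 128 CPM in EX. Its Con values were widely spread, and the log2 fold change was −0.15 (SE 0.07, edgeR adjusted p = 0.138). Rpl30 was the 1 member lower at an unadjusted p under 0.05. Without Con replicate 3 it was called lower (log2 fold change −0.24, edgeR adjusted p = 0.00453). It was also called lower with library totals (−0.21, edgeR adjusted p = 0.0261) and with the offset for length (−0.25, 0.00833). Rpl7a had a log2 fold change of −0.07 (edgeR adjusted p = 0.318) and was called lower with library totals (−0.13, 0.0382) and with the offset for length (−0.14, 0.0224). Rpl38 had one of −0.03 (edgeR adjusted p = 0.904) and Rps24 one of −0.00084 (edgeR adjusted p = 0.993).

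In the small subunit Rps12 changed most, a protein of the beak of the subunit. It measured 121, 126 and 117 CPM in Con and 146, 155 and 151 CPM in EX, clearly apart (log2 fold change 0.31, SE 0.04, edgeR adjusted p = 3.72e-06). Rps28, which lies near the mRNA exit, had 37.5, 41.5 and 38.9 CPM in Con and 47.6, 47.6 and 50.4 CPM in EX. Every EX value was higher (log2 fold change 0.30, SE 0.05, edgeR adjusted p = 1.76e-04). Rps29, a zinc-binding protein of the head, had 65.3, 74.6 and 57.1 CPM in Con and 75, 82.2 and 83.3 CPM in EX. The lowest EX library lay barely above the highest Con library, and the log2 fold change was 0.29 (SE 0.06, edgeR adjusted p = 0.00178). Rps29 lost its call in 5 of 19 alternatives, among them DESeq2 (adjusted p = 0.099) and the offset for length (0.16, edgeR adjusted p = 0.0539).

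Rpsa, the laminin receptor precursor that sits on the back of the small subunit, measured 377, 405 and 399.8 CPM in Con and 466, 475 and 473 CPM in EX. The separation was wide beside the spread within either group (log2 fold change 0.26, SE 0.04, edgeR adjusted p = 5.55e-06). Rps16, whose tail reaches the tRNA in the P site, had 87.5, 96.4 and 83.0 CPM in Con and 98.3, 110.1 and 107 CPM in EX (log2 fold change 0.24, SE 0.05, edgeR adjusted p = 0.00152). The groups of Rps16 did not overlap, and its call was lost with each of the 3 limma fits (0.14 on TPM, adjusted p = 0.0879). Fau, which encodes a ubiquitin-like protein fused to eS30, had 57.5, 63.0 and 58.6 CPM in Con and 67.6, 67.7 and 70.6 CPM in EX, again without overlap (log2 fold change 0.20, SE 0.05, edgeR adjusted p = 0.00413). Fau lost its call in 5 of 19 alternatives, with a log2 fold change of 0.10 with the offset for length (edgeR adjusted p = 0.192).

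Among the abundant small subunit genes, Rps14 and Rps15 passed the test, and Rps27 and Rps21 did not. Rps14, a protein of the platform, had 282, 285 and 310.0 CPM in Con and 325, 345 and 339 CPM in EX (log2 fold change 0.20, edgeR adjusted p = 5.53e-04). In Rps14 all EX values exceeded all Con values, and 5 of 19 alternatives did not call it (0.10 with the offset for length, edgeR adjusted p = 0.0804). Rps15 overlapped, with 263, 243 and 232 CPM in Con and 258, 282 and 266 CPM in EX (log2 fold change 0.13, edgeR adjusted p = 0.0452). Its call was lost in 15 of 19 alternatives, among them DESeq2 (adjusted p = 0.0945) and the fits without Con replicate 2 (0.143), Con replicate 3 (0.228), EX replicate 2 (0.245) or EX replicate 3 (0.107) in edgeR's test. Rps27 measured 97.6 to 110.4 CPM in Con and 102 to 116 CPM in EX (edgeR adjusted p = 0.40), and Rps21 76.1 to 101 CPM in Con and 82.9 to 98.4 CPM in EX (edgeR adjusted p = 0.454).

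The 3 small subunit genes with the lowest TPM gave mixed results. Rps15a had 119.7, 125 and 122 CPM in Con and 134, 137 and 135 CPM in EX, without overlap (log2 fold change 0.15, SE 0.04, edgeR adjusted p = 0.00859), and 4 of 19 alternatives did not call it (0.09 with library totals, edgeR adjusted p = 0.106). Rps20 had 135, 156 and 126 CPM in Con and 151, 155 and 167 CPM in EX (log2 fold change 0.18, edgeR adjusted p = 0.0197), and the call was lost in 7 of 19 alternatives, among them DESeq2 (adjusted p = 0.279) and edgeR's test without Con replicate 3 (0.145) or EX replicate 3 (0.166). The groups overlapped in Rps20 through Con replicate 2. Rps6 had 6.81, 5.66 and 6.59 CPM in Con and 6.43, 6.94 and 8.19 CPM in EX, with a wide error (log2 fold change 0.18, SE 0.13, edgeR adjusted p = 0.362).

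The muscle paralogue Rpl3l rose while Rpl3 did not pass the test. Rpl3l measured 468, 481 and 491 CPM in Con and 530.2, 546 and 526 CPM in EX, without overlap (log2 fold change 0.15, SE 0.03, edgeR adjusted p = 0.00215). Rpl3 measured 61.1, 63.8 and 69.8 CPM in Con and 66.0, 66.1 and 66.0 CPM in EX, inside the Con range (log2 fold change 0.02, SE 0.05, edgeR adjusted p = 0.799). On the TPM scale Rpl3l exceeded Rpl3 in every library, by 7.42, 7.27 and 6.78 times in Con and by 7.78, 7.97 and 7.71 times in EX. The EX ratios were all higher than the Con ratios, with a difference of 0.13 on the log2 scale (exact two-sided permutation p = 0.1, the smallest possible, and 0.25 after Benjamini-Hochberg adjustment over 5 ratios). Thus the ratio did not pass this test, whose smallest p lies above 0.05 with 3 libraries a group. Rpl3l itself lost its call in 3 of 19 alternatives, the limma fits on FPKM and TPM, with a log2 fold change of 0.06 on log2(TPM + 0.1) (adjusted p = 0.256).

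**Figure D3:**
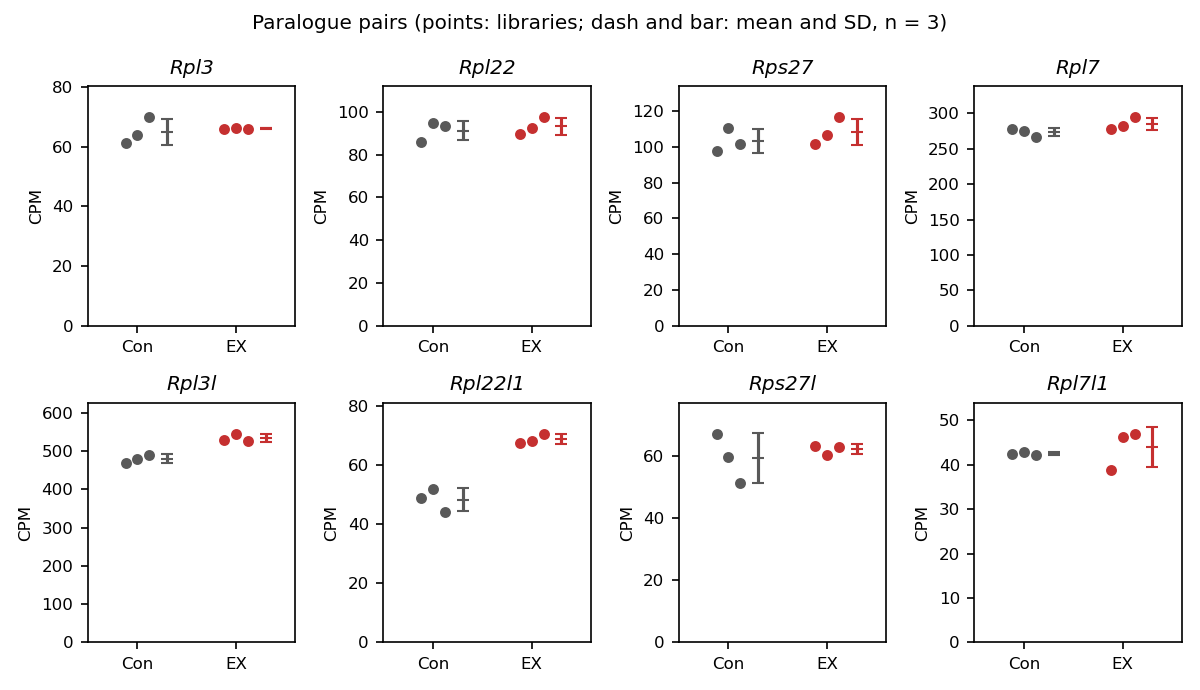
CPM of 4 paralogue pairs by group (upper row Rpl3, Rpl22, Rps27 and Rpl7, lower row Rpl3l, Rpl22l1, Rps27l and Rpl7l1), with a point for each library and the mean and SD (n = 3) beside it. Rpl3l and Rpl22l1 are higher in every EX library, and the other 6 genes overlap between the groups.

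Rpl22 and Rpl22l1 showed the largest shift between paralogues. Rpl22 measured 86.0, 94.5 and 93.1 CPM in Con and 89.6, 92.4 and 97.4 CPM in EX, with full overlap (log2 fold change 0.03, SE 0.05, edgeR adjusted p = 0.73). The TPM of Rpl22l1 was 6.26, 6.10 and 5.53 times that of Rpl22 in Con and 8.47, 8.32 and 7.90 times in EX. In counts the order turns, with Rpl22l1 at 0.566, 0.548 and 0.475 times Rpl22 in Con and 0.750, 0.738 and 0.724 times in EX, since the implied lengths of 168 and 1879 bases scale the TPM. The TPM ratio was higher in every EX library, on average by 0.47 on the log2 scale (exact two-sided permutation p = 0.1, adjusted 0.25). The gap between the groups was larger than the spread within them.

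In the other pairs the ratio overlapped between the groups. The ratio of Rps27l, a p53 target, to Rps27 was 0.189, 0.147 and 0.130 in Con and 0.169, 0.152 and 0.153 in EX (exact permutation p = 0.8). That of Rpl7l1, which acts in ribosome assembly, to Rpl7 was 0.0410, 0.0417 and 0.0418 in Con and 0.0372, 0.0437 and 0.0429 in EX (exact permutation p = 1). Rps27l had a log2 fold change of 0.07 (edgeR adjusted p = 0.477), Rpl7 one of 0.06 (0.30) and Rpl7l1 one of 0.05 (0.634). For Rpl36al, which the symbol rule leaves out, the ratio to Rpl36a was 1.23, 1.43 and 1.40 in Con and 1.12, 1.25 and 1.03 in EX, overlapping through EX replicate 2 (a log2 difference of −0.26, exact permutation p = 0.2, adjusted 0.333). Rpl36a itself rose, from 43.5, 42.9 and 41.7 CPM in Con to 50.1, 48.8 and 48.1 CPM in EX (log2 fold change 0.20, edgeR adjusted p = 0.00574), but its call was lost in 5 of 19 alternatives (0.09 with the offset for length, edgeR adjusted p = 0.25). Rpl36al had a log2 fold change of −0.06 (edgeR adjusted p = 0.537). Rpl10, whose protein joins late in assembly, measured 281, 293 and 305 CPM in Con and 294, 319 and 313 CPM in EX (log2 fold change 0.07, edgeR adjusted p = 0.208).

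Over the 6 libraries the 5 tested genes whose log2 CPM was most like that of Rpl3l were Tmem70 (Pearson r = 0.995), Plekhh3 (0.994), the sarcomeric M-band gene Myom1 (0.993), the ribosome assembly factor gene Grwd1 (0.993) and Myom2 (0.990). These values describe 6 libraries that share the group difference, and they carry no test.

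The family's change was smaller with an offset that removes the trend with transcript length. Ribosomal protein transcripts are short, with a median implied length of 390 bases against 2524 bases over the genes tested, and short genes outside the family were also higher in EX. Among the other genes the median log2 fold change was 0.08 below 200 bases, 0.06 from 200 to 400, 0.05 from 400 to 800, 0.03 from 800 to 1600, 0.01 from 1600 to 3200 and −0.04 above 3200 bases. The members' medians in the first 4 of these classes were 0.16 (22 genes), 0.11 (19 genes), 0.11 (24 genes) and 0.14 (13 genes), above the other genes in each class. In the class under 200 bases 13 of the 22 members rose, against 16.7% of the 90 other genes, and from 800 to 1600 bases 7 of 13 rose, against 10.6% of 2055. With an offset that removes the trend with length, 16 members rose and 2 fell, with a median of 0.04, against 8.27% and 7.8% of all genes. On TPM, tested with limma on log2(TPM + 0.1), 4 members rose and none fell, against 3.12% and 15.5% of all genes. Those that rose were Rpl22l1 (log2 fold change 0.40, adjusted p = 4.51e-04), Rps12 (0.21, 0.00518), Rpsa (0.17, 0.0205) and Rps28 (0.18, 0.0373). The median over the 82 members was then 0.03, while that of all genes tested was −0.09. The members thus lay 0.12 above all genes on TPM, beside 0.13 in the main fit and 0.049 with the offset. The TPM fit also changed the test and the scaling, and what lowered its number of calls was not tested. In TPM 17 members had every EX library above every Con library and 3 had every EX library below, against 6.4% and 33.5% of all genes tested. Whether the length trend is a property of the muscle or of the libraries was not tested.

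**Figure D4:**
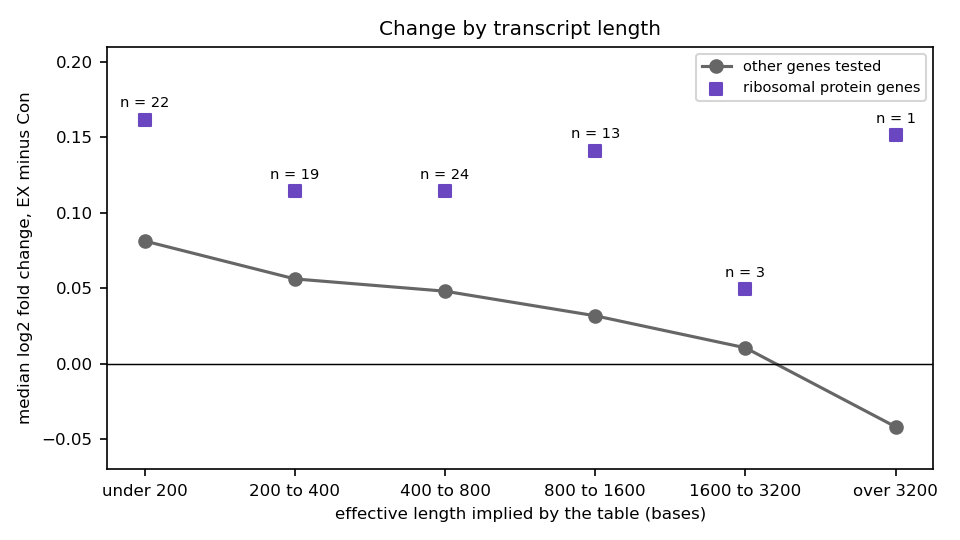
Median log2 fold change of EX against Con in 6 classes of the transcript length implied by the deposited counts and FPKM, for the ribosomal protein genes (squares, with their number) and all other genes tested (line). The members lie above the line in every class, and the line falls from 0.08 in the shortest to −0.04 in the longest class.

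Members that rose were found with and without a TOP-like start at the annotated position, a split that does not separate TOP from other mRNAs. Over all genes tested 9.11% rose. Of the 15 members with such a start 6 rose, with a median log2 fold change of 0.15, and of the 47 tested members without one 22 rose, with a median of 0.13. Among the printed windows, Fau, Rpl15, Rpl35 and Rps10 belong to genes that rose and Rps18 to one that did not pass. Of the members whose tracts are not printed, Rplp2 and Rps15a rose. The others did not pass, among them Rpl32l with a tract of 10 bases and Rps6 with one of 9.

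The lists of the wider pathway are read against the 9.11% of all genes that rose. In 18 TOP mRNAs that encode no subunit of the ribosome by the symbol rule, mainly translation factors, 3 rose (16.7%), none fell and 15 did not pass, with a median log2 fold change of 0.05. Those that rose were the elongation factor subunits Eef1b2 (0.23, edgeR adjusted p = 2.20e-04) and Eef1g (0.12, 0.0174) and the growth-related Tpt1 (0.12, 0.0347). The abundant elongation factors Eef1a1 (0.04, edgeR adjusted p = 0.499) and Eef2 (0.02, 0.774) and the nucleolar chaperone Npm1 (0.06, 0.427) did not pass. Of 32 ribosome biogenesis genes 1 rose (3.12%), Grwd1 (0.27, edgeR adjusted p = 0.007), and none fell. Of 12 tested RNA polymerase I genes and factors 1 rose (8.33%), Myc (0.36, edgeR adjusted p = 0.0212), which stimulates ribosome production, and none fell. Among 16 genes of mTORC1 signalling to TOP mRNAs 3 rose (18.8%) and none fell. These were the mTOR inhibitor Deptor (0.37, edgeR adjusted p = 7.60e-08), the cap-binding factor Eif4e (0.21, 3.46e-04) and the mTORC1 activator Rheb (0.15, 0.035), while the TOP-binding repressor Larp1 was at −0.03 (0.663).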

How the data were processed

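RNA of hind leg muscle from 3 Con and 3 EX mice was sequenced as 150-base paired reads on the DNBseq platform, with 1 library per mouse. The authors deposited estimated counts per gene, which are not normalized, and the FPKM and TPM values that they derived from them. The paper's methods name HISAT and GRCm39, whereas the submitters' processing notes name GRCm38.p6, cutadapt, featureCounts and MultiQC, so the build of the counts is uncertain and no coordinate is taken from them. The 6 columns of the authors' group means were not used.

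Counts were rounded and tested with edgeR 4.0.16 (glmQLFit and glmQLFTest, TMM) in R 4.3.3 over the 10883 genes that averaged 1 FPKM or more, with Benjamini-Hochberg adjustment over all of them and a threshold of 0.05. CPM use TMM library sizes, and list members were described by counts and medians with no test of the list. Alternatives used DESeq2 1.42.0 and limma 3.58.1 on log2(FPKM or TPM + pseudocount), a scale on which low genes change less. The fits were run on simulated data whose planted changes exceeded the family's median change and which held no trend with length. This does not test them for changes of the family's size. The length of a gene was taken as counts over FPKM. Replicates within a group differed by more than sampling noise. Sequences come from the RefSeq promoter table (GRCm38.p6) and GENCODE M21. The promoter table matched 63 of the 83 members.

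Genes were named by a rule: both genes of each paralogue pair, the stalk genes, Rpsa and Fau, the 5 highest and 3 lowest members of each subunit by TPM, the 10 largest called changes each way, and the 5 genes most like Rpl3l. Some items are withheld for evaluation and are not reported here, though counts and medians over the family include them. The members and lists were chosen with earlier results of these data known.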

Additional observations from a re-analysis of the deposited data

How the results depend on the processing

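The median log2 fold change of the family stayed above 0 in every setting listed here, while its size and the number of calls changed. The 40 members called (22 of the large and 18 of the small subunit) became 24 (22 higher and 2 lower; 12 large) with library totals, 9 (3 large, 6 small) with limma on log2(FPKM + 0.1) or log2(FPKM + 1), 4 (1 large, 3 small) with limma on log2(TPM + 0.1), 18 (16 higher and 2 lower; 10 large, 8 small) with an offset for length and 20 (18 higher and 2 lower; 11 large, 9 small) with that offset fitted without the members. In the same order the median moved from 0.13 to 0.072, 0.065 (both FPKM fits), 0.030, 0.044 and 0.051. Much of this was a shift shared with other genes. Once that shift is taken off, the members lay 0.13 higher in the main fit and with library totals. They lay 0.12 and 0.11 higher on FPKM and 0.12 higher on TPM, but only 0.049 and 0.056 higher with the length offsets. The 2 members called lower with totals or a length offset were Rpl30 and Rpl7a. Median-ratio scaling gave 41 calls, totals without the 20 most abundant genes 32, no filter 41, a mean of 5 FPKM 35, DESeq2 33, an offset for the effective length of each library 36, and the members with whole counts alone 37 of 73. Leaving out 1 library at a time gave 28 (without EX replicate 3) to 44 calls and medians of 0.11 to 0.15. Without Con replicate 3 Rpl30 was called lower. The mean share of counts was higher in EX by 0.0781 percentage points and the share of TPM by 0.114. The offset fitted without the members, the effective length offset and the fit on whole counts were chosen after seeing the data.

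Of the members named by the rule, those whose log2 fold change of EX against Con turned below 0 did not pass the test there, and unnamed members are not listed. The median of all genes tested was itself −0.057 with library totals, −0.056 and −0.049 on FPKM, −0.091 on TPM and −0.0046 with the offset for length. A value below 0 can thus still lie above that median. With library totals 12 of the 82 members lay below 0, with an offset for length 20 and with limma on log2(TPM + 0.1) 27, against 4 in the main fit. The named ones were Rpl3 −0.033, Rpl22 −0.028, Rpl7l1 −0.0074 and Rpl26 −0.015 with library totals. With totals without the 20 most abundant genes they were Rpl3 −0.00086. With limma on log2(FPKM + 0.1) they were Rpl3 −0.033, Rpl22 −0.027, Rps27 −0.034, Rpl7 −0.0022, Rpl7l1 −0.013, Rpl26 −0.027 and Rps21 −0.0021. With limma on log2(FPKM + 1) they were Rpl3 −0.032, Rpl22 −0.027, Rps27 −0.034, Rpl7 −0.0022, Rpl7l1 −0.012, Rpl26 −0.027 and Rps21 −0.0020. With limma on log2(TPM + 0.1) they were Rpl3 −0.068, Rpl22 −0.062, Rps27 −0.069, Rps27l −0.031, Rpl7 −0.038, Rpl7l1 −0.048, Rpl10 −0.022, Rplp1 −0.0013, Rpl23a −0.0097, Rpl26 −0.062 and Rps21 −0.037. With an offset for length they were Rpl3 −0.018, Rps27 −0.070, Rps27l −0.031, Rpl7 −0.0085, Rpl10 −0.0045, Rplp1 −0.0017, Rpl23a −0.0054, Rpl26 −0.060 and Rps21 −0.039. With that offset fitted without the members they were Rpl3 −0.018, Rps27 −0.056, Rps27l −0.024, Rpl7 −0.0075, Rpl10 −0.0026, Rpl26 −0.053 and Rps21 −0.028. Leaving out 1 library at a time gave ranges that crossed 0 for Rpl3 −0.020 to 0.078, Rpl22 −0.015 to 0.056, Rps27l −0.025 to 0.16, Rpl7l1 −0.00056 to 0.13, Rpl26 −0.025 to 0.10, Rps21 −0.0048 to 0.20, the log2 ratio of Rps27l to Rps27 −0.079 to 0.19 and the log2 ratio of Rpl7l1 to Rpl7 −0.054 to 0.063.

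With a replicate block 37 members were called, the median was 0.13, and the call of Rps15 was lost (adjusted p = 0.0542). Labels give both groups the replicate numbers 1 to 3, but same-numbered libraries did not deviate together (correlations of −0.084, −0.052 and −0.073), and none correlated best with its own number. Such values, from deviations within groups of 3 libraries, cannot show whether same-numbered libraries were handled together. The calls of Rplp0 (adjusted p = 0.0553 without EX replicate 2), Rplp2 (0.0869 to 0.304 without Con replicate 1 or 2 or EX replicate 2 or 3), Rps15 and Rps20 were lost when 1 library was left out, while Rpl23a, Rplp1, Rps21 and Rps27l passed without 1 library (Rpl23a 0.0322 without EX replicate 1, Rplp1 0.0354 without Con replicate 2 and 0.0361 without EX replicate 2, Rps21 0.00412 and Rps27l 0.0317 without Con replicate 1). With 3 mice a group, changes as small as the family's rest on errors of about 0.04 on the log2 scale, the cause of the lost calls was not tested, and genes with few counts such as Rpl32l and Rps6 could not be resolved. No result met a criterion for a closer look, since groups of 3 are not tested for outlying libraries.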

Other observations

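Rps3a1, which the symbol rule leaves out, encodes the small subunit protein eS1. It measured 393, 379.6 and 369 CPM in Con and 395, 407 and 407 CPM in EX, with every EX library just above the Con libraries (log2 fold change 0.08, SE 0.04, edgeR adjusted p = 0.12). Rps27a, a member whose product is a ubiquitin fusion, was singled out after its values were seen. It measured 143, 143 and 143 CPM in Con and 166, 160.5 and 164 CPM in EX, without overlap (log2 fold change 0.19, SE 0.04, edgeR adjusted p = 7.77e-04).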
